A study of Drosophila melanogaster with 2 samples.

Results

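Binding of scrt-GFP was described at 8 core genes of the Notch pathway, N, Dl (named Delta in the annotation), Ser, Su(H), H, neur, mam and gro, of 13945 protein-coding genes. The genes were taken by name, and a peak was given to a gene when its summit lay in the gene body or within 5 kb of it. This gave 25 of the 6407 peaks of the authors' optimal list, called reproducible here, and 78 of the 30000 peaks called on both replicates together. The study immunoprecipitated scrt, a neuronal zinc-finger protein of the Snail family, from whole Drosophila melanogaster embryos and sequenced the bound DNA. The strain, scrt-GFP, is a transgenic line with GFP at the C terminus of scrt, and the pooled male and female embryos were 4 to 24 h old. The 2 samples, biological replicates 3 and 4, form 1 group with no contrasting genotype or treatment, so no test between groups exists. A description in the labels calls both samples input controls, while their antibody field names scrt. They were read here as scrt immunoprecipitations. The strongest reproducible peak in or near the scrt gene had a signal of 4878 at rank 21, and its distance from a scrt start site is not given here. Whole embryos hold many cell types, so a peak cannot be placed in neurons or in any other cell, and presence of the fusion in few cells and weak binding in many cannot be told apart.

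In Notch signalling, Dl and Ser are ligands on one cell that activate the receptor N on its neighbour, and neur is the ubiquitin ligase that lets the ligands be taken up and signal. The cleaved receptor enters the nucleus, joins the DNA-binding protein Su(H) and recruits mam as coactivator. Without it, Su(H) is held with H, which brings in the corepressor gro. In the fly nervous system the pathway selects single neural precursors from groups of like cells and separates the fates of sister neurons.

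The sequences under the peaks of gro, neur and N are shown so that the reproducible sites near their promoters and introns can be compared by their letters; those of mam, 2 of which were stronger than any at neur or N, are given by their motifs alone. The leading peak of Dl, which did not reach the reproducible list, is shown beside them. Each run is 201 bp centred on the summit, on the plus strand of RefSeq's Release 6 assembly, the dm6 assembly of the deposited peaks. Capitals mark any of 6 motifs searched on both strands. CAGGTG is a core known for the Snail family, and the longer CAACAGGTG contains it. The letters GCAACA were searched alone and can overlap that longer form. The palindrome CAGCTG is an E-box of the kind bound by proneural factors. The Su(H) site was searched as GTGGGAA, and as its other common form GTGAGAA. Motifs on the minus strand appear as their reverse complement.
gro internal promoter peak, chr3R:26042386-26042586: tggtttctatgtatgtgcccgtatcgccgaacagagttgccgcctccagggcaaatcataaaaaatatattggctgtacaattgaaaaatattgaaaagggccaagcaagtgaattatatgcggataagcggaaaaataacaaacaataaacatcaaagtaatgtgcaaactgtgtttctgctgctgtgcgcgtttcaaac
gro first promoter peak, chr3R:26041530-26041730: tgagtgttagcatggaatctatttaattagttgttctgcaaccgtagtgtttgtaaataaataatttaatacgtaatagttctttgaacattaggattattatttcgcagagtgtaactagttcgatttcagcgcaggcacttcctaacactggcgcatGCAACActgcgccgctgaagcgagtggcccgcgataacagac
neur internal promoter peak, chr3R:9033817-9034017: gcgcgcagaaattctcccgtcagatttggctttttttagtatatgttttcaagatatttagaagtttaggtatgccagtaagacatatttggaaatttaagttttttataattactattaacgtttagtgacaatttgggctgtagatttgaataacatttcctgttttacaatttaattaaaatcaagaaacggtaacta
neur internal promoter, weaker neighbour, chr3R:9034023-9034223: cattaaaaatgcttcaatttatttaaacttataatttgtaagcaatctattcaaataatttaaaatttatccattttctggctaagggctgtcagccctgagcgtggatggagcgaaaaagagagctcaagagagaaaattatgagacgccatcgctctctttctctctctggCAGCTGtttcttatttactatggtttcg
neur intron peak, chr3R:9031929-9032129: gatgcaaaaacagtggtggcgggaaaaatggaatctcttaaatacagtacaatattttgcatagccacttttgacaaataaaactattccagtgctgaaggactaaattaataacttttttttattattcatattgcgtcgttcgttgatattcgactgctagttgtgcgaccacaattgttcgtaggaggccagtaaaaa
neur and hyx overlap peak, chr3R:9038762-9038962: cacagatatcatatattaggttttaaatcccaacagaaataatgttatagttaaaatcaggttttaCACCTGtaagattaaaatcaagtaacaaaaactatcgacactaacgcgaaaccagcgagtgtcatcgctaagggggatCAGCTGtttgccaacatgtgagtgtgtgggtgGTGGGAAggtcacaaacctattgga
N intron peak, chrX:3162416-3162616: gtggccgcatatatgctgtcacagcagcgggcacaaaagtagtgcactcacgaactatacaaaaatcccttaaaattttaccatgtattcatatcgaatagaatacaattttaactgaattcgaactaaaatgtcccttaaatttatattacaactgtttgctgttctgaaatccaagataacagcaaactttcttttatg
Dl leading pooled peak, chr3R:19321629-19321829: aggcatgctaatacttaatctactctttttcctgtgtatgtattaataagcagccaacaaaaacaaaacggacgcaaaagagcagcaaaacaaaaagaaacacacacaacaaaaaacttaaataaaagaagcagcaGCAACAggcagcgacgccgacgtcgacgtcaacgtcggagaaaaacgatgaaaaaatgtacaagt

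The leading gro peak, the leading neur peak, the neur intron peak and the N intron peak carry no capitals. Of the 3 strongest mam peaks, those of signal 896 and 569 held GCAACA and the one of signal 933 held none of the 6 motifs. Outside mam, the only reproducible peak with CAGGTG was the one in the overlap of neur and hyx, where the motif was on the minus strand. That window also held CAGCTG and GTGGGAA, and no marked motif overlaps another there. Over the 25 reproducible peaks of the 8 genes, 2 held CAGGTG, against 7.68% of all 6407, and 0 held CAACAGGTG, against 1.75%. GCAACA was in 6, of which 5 were at mam, against 31.1% of all, and CAGCTG was in 3, against 12.6%. GTGGGAA was in 1, against 2.67%, and GTGAGAA in 0, against 2.28%. These are counts of letters in a window and say nothing of which protein was bound.

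Of the 8 genes, 4 had a reproducible peak: mam with 16, neur with 4, gro with 3 and N with 2. Dl, Ser, Su(H) and H had 0. Over all protein-coding genes the share with such a peak was 51.6%, so a count of 4 in 8 is close to the background. Near their own start sites the count was 3 of 8, mam, neur and gro, with a summit within 500 bp of an annotated transcription start site (TSS); 22.0% of protein-coding genes had one. In the longer list called on both replicates together, which includes background, 6 of 8 genes had a peak, against 74.8% of protein-coding genes. Signal, the authors' enrichment value for a peak, ran from 193 to 1092 over the 25 peaks with a median of 295, against 333 for all 6407. None of the 8 genes therefore carried a peak near the top of the list, where signal reached 10010, and 10 of the 25 were among the 3203 peaks of highest signal.

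**Figure D1:**
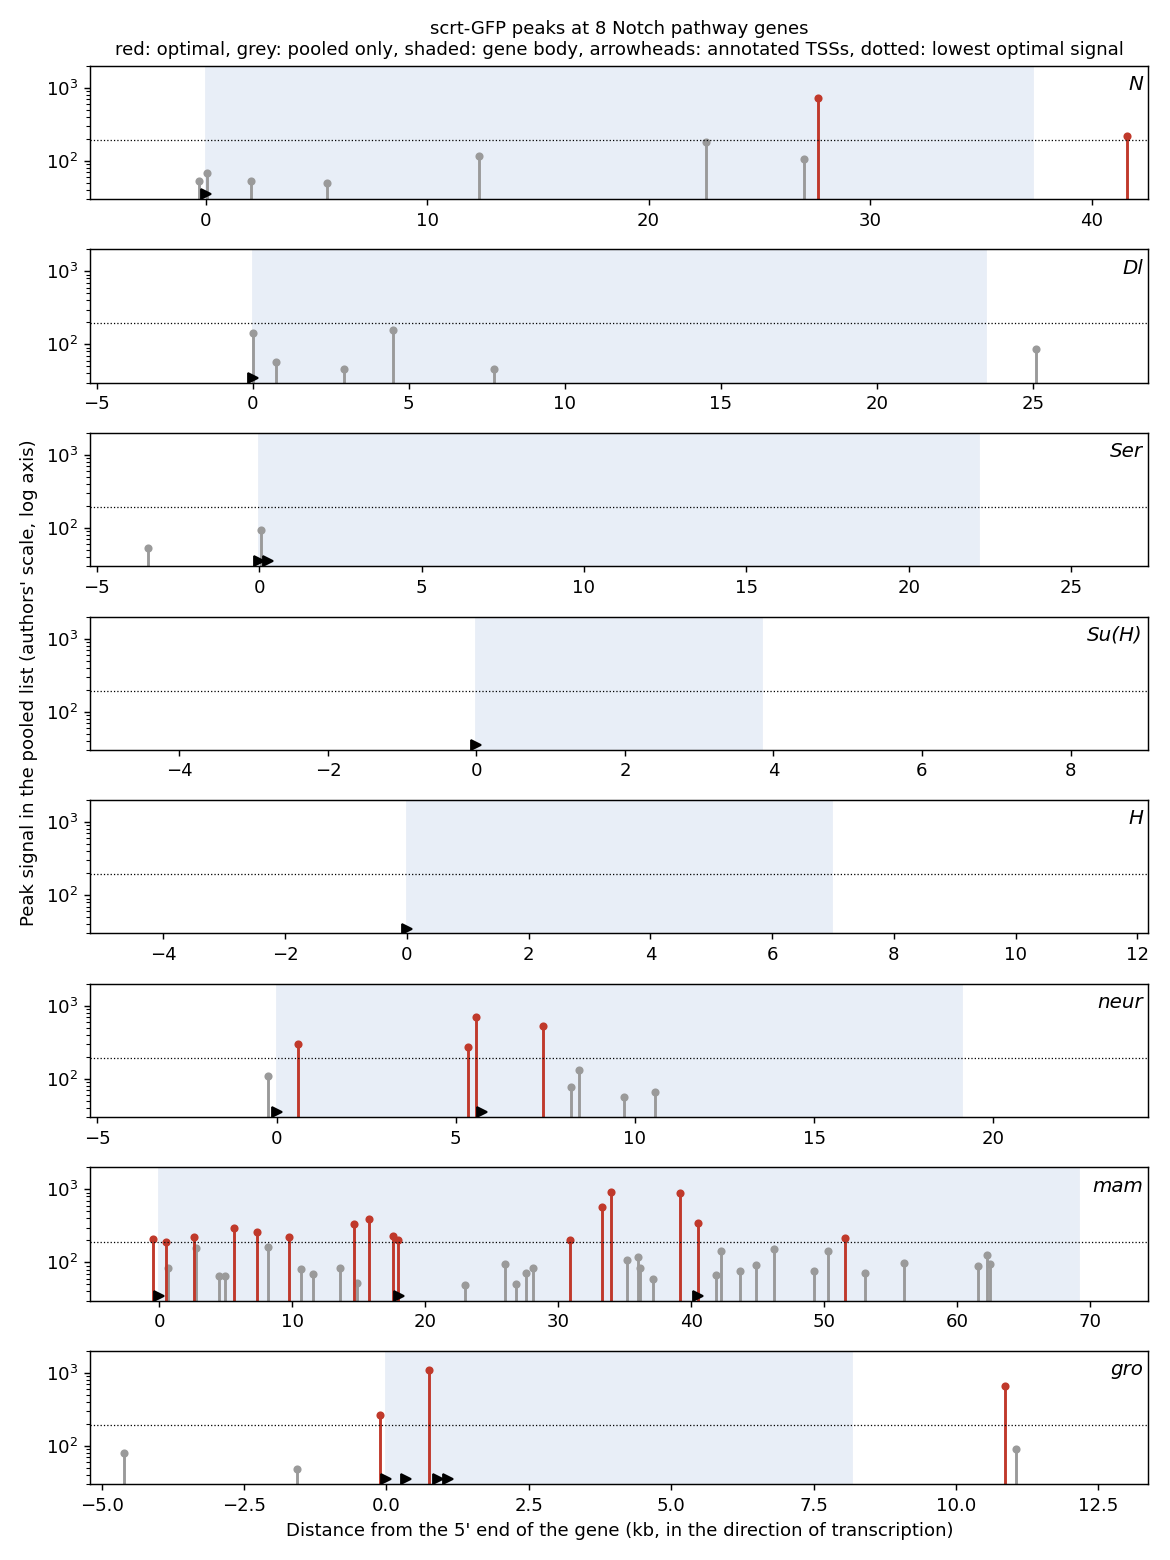
Peaks at each of the 8 genes, with distance from the 5' end of the gene in kb on the horizontal axis and pooled peak signal on a log vertical axis. Red stems are the 25 reproducible peaks (optimal in the legend), grey stems are peaks found in the pooled list alone, shading is the gene body, arrowheads are annotated TSSs and the dotted line is the lowest signal of the reproducible list. The windows of Su(H) and H are empty and those of Dl and Ser hold grey stems alone.

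The 2 ligand genes had no reproducible peak in the gene or within 5 kb. Dl (FBgn0000463, 3R, 19302731 to 19326217, minus strand) held 6 peaks of the pooled list, of which 3 overlapped a peak in both replicates. The strongest, in an intron 4488 bp from the start site, had a signal of 159 at rank 8061 and ranked 7228 in replicate 3 and 7972 in replicate 4. The peak at the Dl start, 11 bp from the TSS, had a signal of 141 at rank 9194, with ranks of 11814 and 8996 in the replicates. Both lay below the lowest reproducible signal of 193. The nearest reproducible peak to the Dl body was 56240 bp away, nearest to the start of unc79. Ser (FBgn0004197, 3R, 27172090 to 27194267, minus strand) was weaker still. Its peak 66 bp from a start site had a signal of 94.6 at rank 14205, was at rank 9423 in replicate 4 and had no overlapping peak in replicate 3. The nearest reproducible peak to the Ser body was 10918 bp away, outside the window, with a signal of 212 at rank 5759. Its nearest TSS was that of Ser itself. Of 350 protein-coding genes of 20000 to 30000 bp, the length range of both ligand genes, 80.0% had a reproducible peak in the same window, with a median of 2.

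The gene of the ligand's ubiquitin ligase, neur (FBgn0002932, 3R, 9020348 to 9039471, minus strand), had 4 reproducible peaks. It had 2 among the 6407 leading peaks of replicate 3 and 3 among those of replicate 4. Its longest transcript has a first intron of 15309 bp that contains all 4 summits. The strongest, at 9033789 to 9034001, lay 186 bp upstream of the internal TSS, from which 2 of 5 transcripts start, with a signal of 712 at rank 1141. A second summit, further upstream of that TSS, had a signal of 277 at rank 4095. Each replicate also held 2 peaks here. The best-ranked overlapping peak was the same for both summits, of rank 764 in replicate 3 and 2006 in replicate 4. The replicate summits nearest to the weaker one, 33 bp and 9 bp away, ranked 23901 and 11360. A separate peak 1702 bp downstream of the internal TSS had a signal of 531 at rank 1727, and ranked 2217 in replicate 3 and 1388 in replicate 4. The order of these sites thus differed between replicates, with the internal promoter ahead in replicate 3 and the intron peak ahead in replicate 4.

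The fourth neur peak, of signal 304 at rank 3633, lay 609 bp from the outer neur TSS and 102 bp from that of hyx, an overlapping gene of the Paf1 transcription elongation complex. It ranked 3354 in replicate 4 and had no overlapping peak in replicate 3, whose nearest summit was 4706 bp away. The outer start of neur, used by 3 of 5 transcripts, had no reproducible summit within 500 bp. Among 964 protein-coding genes of 10000 to 20000 bp, the median was 1 reproducible peak and the upper quartile 3.

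The receptor gene N (FBgn0004647, X, 3134870 to 3172221, plus strand) carried a strong peak in one replicate. The peak, at 3162376 to 3162664 in the fifth intron of 4245 bp, had a signal of 732 at rank 1097. It ranked 861 in replicate 4, with a summit 3 bp away, and overlapped no peak among the 30000 of replicate 3, whose nearest summit was 615 bp away at rank 7975. Of the 1500 leading reproducible peaks, 13 had no overlapping peak in replicate 3 and 1 had none in replicate 4. With the 6407 leading peaks of replicate 3 in place of the reproducible list N had 0 peaks, and with those of replicate 4 it had 3. The other peak given to N lay outside the gene, 31 bp from a TSS of dnc, which encodes a cAMP phosphodiesterase, and had a signal of 217 at rank 5564. At the N start itself the pooled list held peaks of signal 67.2 and 52.7, 83 bp and 281 bp from the TSS, at ranks 20298 and 26046.

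Su(H) and H had no peak in either list. Su(H) (FBgn0004837, 2L, 15039488 to 15043334, plus strand), the DNA-binding protein of the pathway, was 13540 bp from the nearest pooled summit, and its window held 0 peaks in replicate 3 and 0 in replicate 4. H (FBgn0001169, 3R, 20621938 to 20628915, plus strand), its corepressor partner, was 5848 bp from the nearest pooled summit, and held 1 peak of rank 19839 in replicate 3 and 0 in replicate 4. A strong peak of signal 4970 at rank 19, nearest to the start of the kinase gene Lrrk, lay 7047 bp from the H body and enters its count with a window of 10 kb. Both are short genes, of 3847 and 6978 bp. Of 10461 protein-coding genes under 5000 bp, 46.1% had a reproducible peak and 3077 had no pooled peak. Of 1507 genes of 5000 to 10000 bp, 59.7% had a reproducible peak and 286 had no pooled peak.

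The corepressor gene gro (FBgn0001139, 3R, 26041736 to 26049911, plus strand) had the strongest peak of the 8 genes. It lay at 26042363 to 26042641 with a signal of 1092 at rank 574, and ranked 790 in replicate 3 and 471 in replicate 4. Its summit was 155 bp upstream of an internal TSS, 905 bp into the gene, from which 1 of 10 transcripts starts. The outer start, used by 6 transcripts, had a weaker peak 106 bp upstream, of signal 270 at rank 4224, with ranks of 4444 and 3137. All 4 start sites of gro lay within 500 bp of one of these summits. The remaining peak, of signal 673 at rank 1242, was outside the gene, 230 bp from a TSS of Vps2, which encodes an ESCRT-III subunit, and ranked 717 in replicate 3 and 3319 in replicate 4. On its other side gro adjoins the Enhancer of split genes, which are direct Notch targets. There the window held pooled peaks alone, of signal 79.2 at E(spl)m7-HLH and 49.2 at E(spl)m8-HLH, at ranks 17207 and 27802.

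The coactivator gene mam (FBgn0002643, 2R, 13991203 to 14060356, plus strand) held 16 of the 25 peaks. Of these, 15 had their summit in the 69154-bp body, a density of 2.17 per 10 kb, and 1 lay upstream. Over the 6 chromosomes the density was 0.479 per 10 kb. The median over the 1013 protein-coding genes of 20 kb or more was 0.335, the upper quartile was 0.751, and 21 of these genes exceeded mam. Counted with 5 kb on each side, 6 of 13945 genes had more reproducible peaks than mam. The 3 protein-coding genes nearest to it in length had fewer, with 2 at Nlg3, 4 at pdm3 and 3 at CG42342. In the pooled list mam had 46 peaks, and 35 genes had more. CG42342 was one of these, with 54, so a gene of this length can hold many peaks of the pooled list and few reproducible ones.

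**Figure D2:**
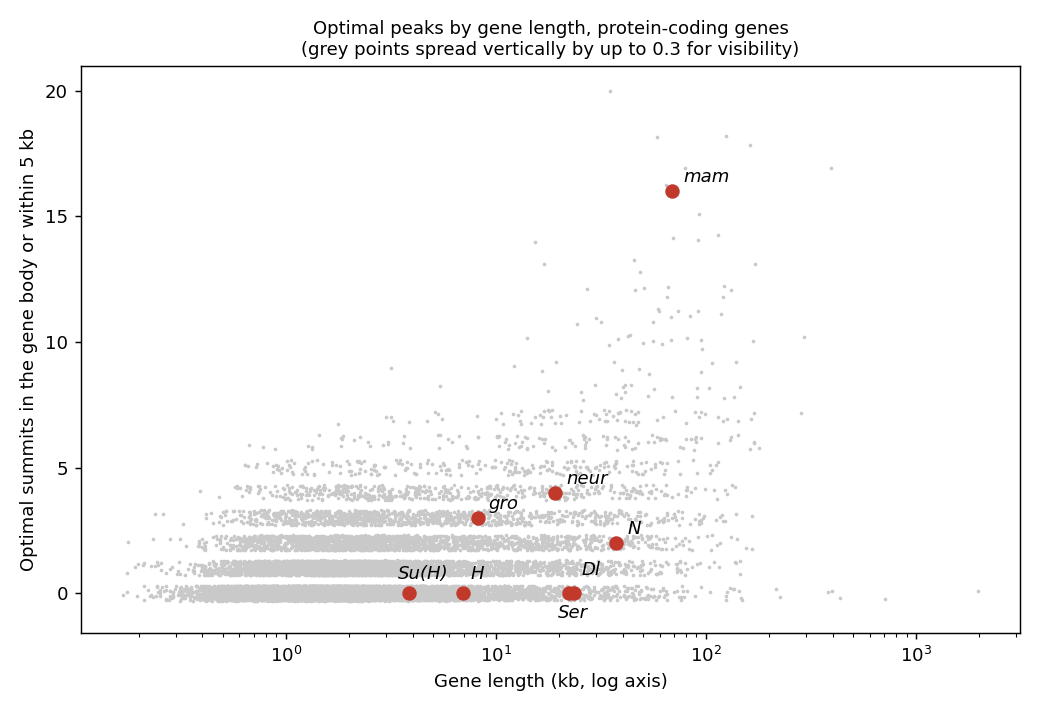
Number of reproducible summits in the gene body or within 5 kb (vertical axis) against gene length in kb (log horizontal axis) for the 13945 protein-coding genes in grey, spread slightly in the vertical for visibility, with the 8 Notch pathway genes in red. At 16 peaks mam stands above nearly all genes of its length, while Dl and Ser are at 0 among genes with a median of 2.

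Along mam most reproducible peaks lay in the first 20 kb or from 30 to 40 kb, and the 3 strongest were in the second stretch. The first 20 kb of the gene held 9 reproducible summits, 5 in the first 10 kb and 4 in the next, with signals of 193 to 396. From 20 to 30 kb there were 0. From 30 to 40 kb there were 4, among them the 3 strongest of the gene, and the next 2 bins held 1 each. The other summit of that stretch, 30.9 kb into the gene, had a signal of 206 at rank 5949, within the range of the first 20 kb. The largest gap between neighbouring summits was 12899 bp and the median gap 2103 bp. After the last reproducible summit, 17565 bp of the gene remained, and this stretch held 5 pooled peaks. By the introns of the longest transcript, the first held 1 summit, the second, of 18058 bp, held 8, the third, of 27528 bp, held 5, and the fourth, of 14983 bp, held 1.

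The 3 strongest peaks lay upstream of the third mam TSS, which is 40.5 kb into the gene. The strongest, 34.0 kb into the gene, had a signal of 933 in the pool at rank 743 and ranked 703 in replicate 3 and 794 in replicate 4. The peak at 39.2 kb, 1289 bp upstream of this TSS, had a signal of 896 at rank 797 and ranks of 733 and 917. The peak at 33.3 kb had a signal of 569 at rank 1581 and ranks of 1569 and 1433. The replicates thus placed all 3 among their leading 1601 peaks and their summits differed from the pooled ones by at most 41 bp. The small gene CG18371 lies between the peaks at 34.0 and 39.2 kb and had no reproducible summit within 500 bp of its start.

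Each of the 3 start sites of mam had a summit close by, at lower signal. The third TSS had one 3 bp away, of signal 346 at rank 3050. The second TSS, 18.0 kb into the gene and used by 2 of 4 transcripts, had summits 30 bp and 400 bp upstream with signals of 204 and 227. The best-ranked overlapping peaks were the same for both, of ranks 4461 and 5311 in replicates 3 and 4. The replicate summits nearest to the one 30 bp upstream lay 47 bp and 14 bp away, at ranks 14854 and 6108. The first TSS had a summit 458 bp downstream, of signal 193 at rank 6405 of 6407. On its other side a summit of signal 210 lay 466 bp upstream of the mam start and 30 bp from that of RN-tre, a Rab GTPase-activating protein gene. A further peak of signal 332, 14.6 kb into the gene, lay 164 bp from the annotated 5' end of mir-4978. That end is of a microRNA hairpin inside mam on the other strand, and it is counted as a promoter by distance although it need not be where transcription starts.

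**Figure D3:**
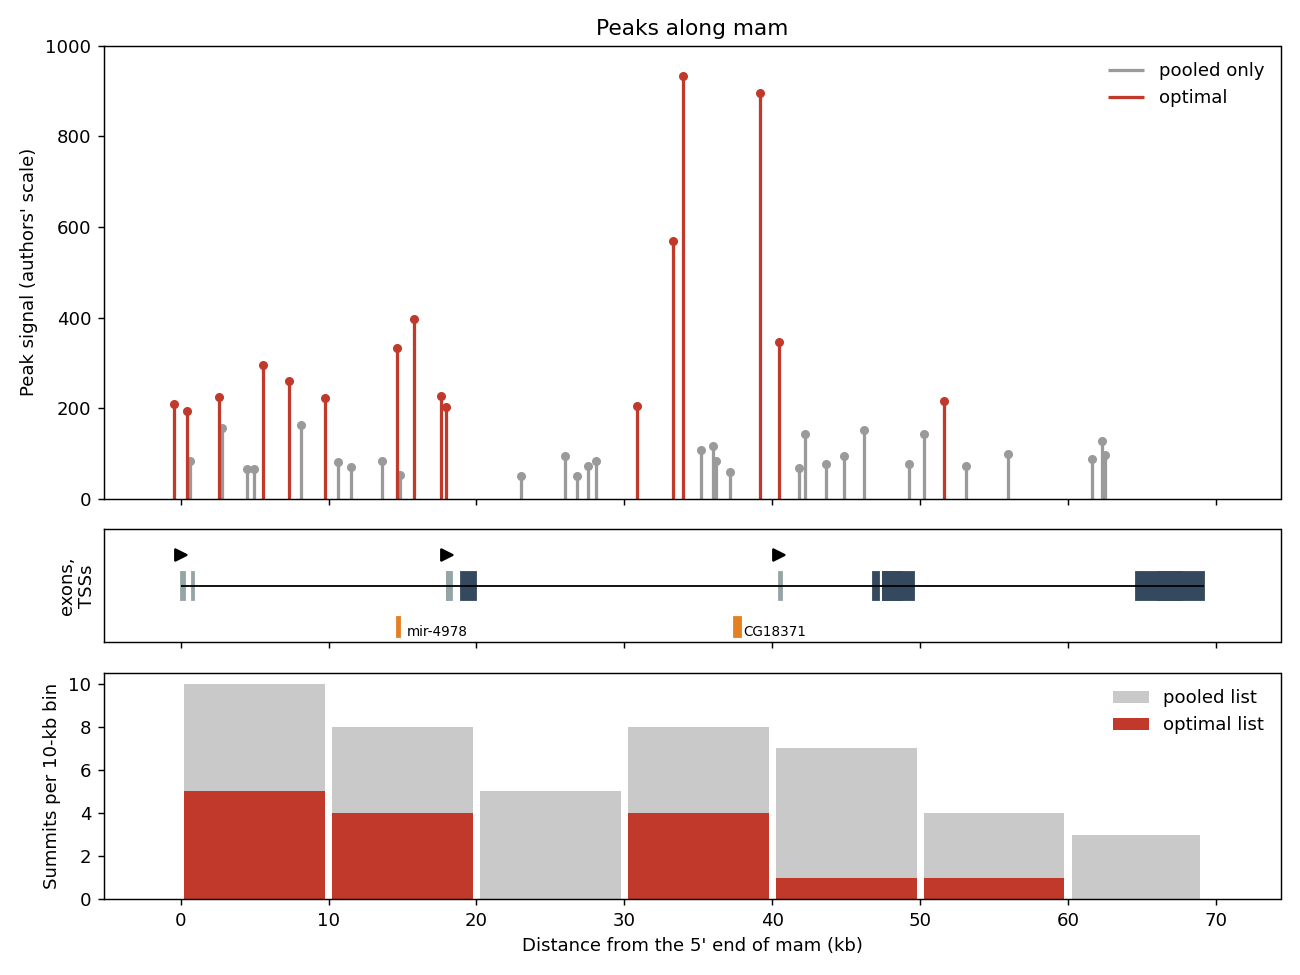
Peaks along mam: signal (top, authors' scale) of reproducible peaks in red and pooled peaks in grey, the exons of all transcripts with coding ones dark, TSS arrowheads and the embedded genes in orange (middle), and summits per 10-kb bin (bottom), all against distance from the 5' end in kb. The tallest stems stand from 33.3 to 39.2 kb, and the bins from 20 to 30 kb and beyond 60 kb hold no reproducible summit.

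Below the reproducible threshold mam was also densely covered. The 30 further peaks of the pooled list had signals of 49.8 to 163 with a median of 83.6, the best at rank 7811, and 28 of them overlapped a peak in both replicates. Over the 8 genes, mam included, 42 of 53 such peaks did. The share over all such peaks of the pooled list is not given here, so 28 of 30 is not shown to be unusual. The median of the 16 reproducible peaks was 243; the lists are divided by signal, so the order of these medians is given by construction. The longest gap between 2 neighbouring pooled summits of mam and its flanks was 5623 bp and the median 1044 bp. The last pooled summit lay 62.5 kb into the gene, and the rest of the 69154-bp body and the flank after it held none. Replicate 3 held 53 peaks in this window and replicate 4 held 52.

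All 16 mam peaks overlapped a peak in both replicates, but the weaker ones ranked differently. Of the 11 mam peaks outside the 3203 of highest signal, 10 ranked better in replicate 3 than in replicate 4, against 52.2% of 3112 such peaks in the whole list with a match in both. These ranks are of the best-ranked overlapping peak. By the overlapping peak of nearest summit, a choice made after seeing the data, 8 of the 11 ranked better in replicate 3, against 51.8% of the whole. The 5 stronger mam peaks were spread over both orders, with 2 better in replicate 3. By the same order, mam had 16 summits among the 6407 leading peaks of replicate 3 and 10 among those of replicate 4. The peaks at 17.6 and 18.0 kb share their best-ranked matches, and peaks of 1 gene come from the same libraries, so these are not independent counts. A difference in depth or chromatin between the libraries was not tested.

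**Figure D4:**
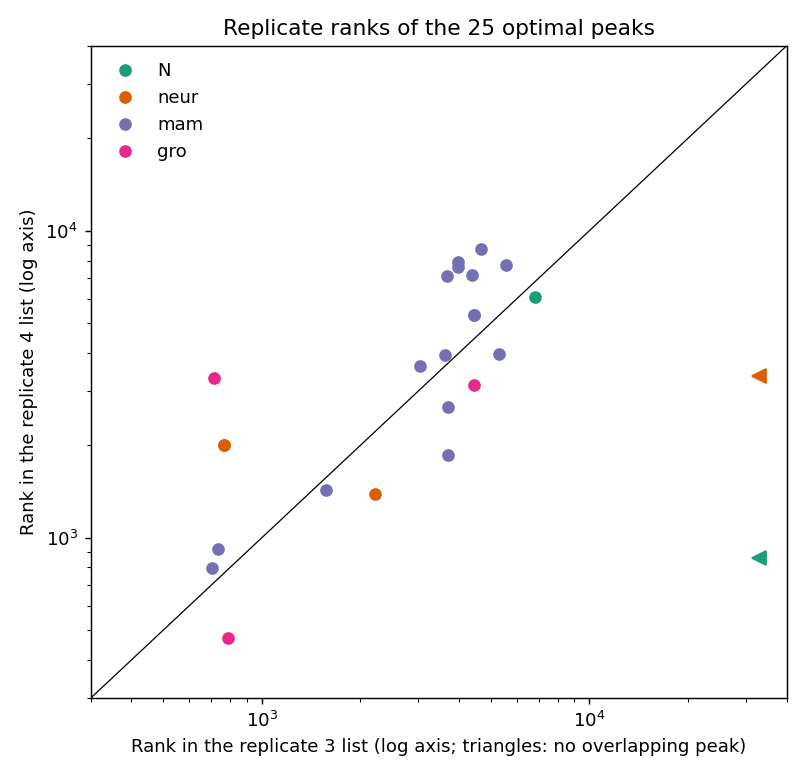
Rank of the best-ranked peak overlapping each of the 25 reproducible peaks in the replicate 3 list (horizontal) and the replicate 4 list (vertical), both on log axes, with the line of equal rank; triangles are peaks with no overlap in replicate 3. A pair of neur peaks and a pair of mam peaks share these matches and fall on the same point. Most weaker mam points lie above the line, and the strongest N peak and the neur and hyx peak are the triangles.

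Over the 8 genes, 23 of 25 peaks (92.0%, Wilson 95% interval 75 to 97.8) overlapped a peak in both replicates, against 97.6% of all 6407. This interval and the one below cover counting error only and treat the 25 peaks as independent. That does not hold, since 16 of them are of mam and peaks of 1 gene come from the same libraries. The 2 without a match, at N and at hyx, both lacked replicate 3. The reproducible list was made from these same replicates, so neither share is independent evidence of agreement. By location, 13 of the 25 were at promoters, within 500 bp of any TSS (52.0%, interval 33.5 to 70.0), against 47.3% of all, and the other 12 were in introns, against 36.1% of all. Of the 13, 9 were within 500 bp of a TSS of the member itself, and the other 4 belonged by distance to dnc, hyx, mir-4978 and Vps2. Among the 9, the summit 466 bp upstream of the mam start was nearer to the start of RN-tre, at 30 bp. Grouping start sites closer than 100 bp, the 8 genes had 15, of which 8 had a reproducible summit within 500 bp and 13 a pooled one. No share over all start sites is given beside these counts. The 8 included all 4 sites of gro, which lie close together and share their summits, and all 3 of mam, so they are not independent.

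Other genes of the pathway had a reproducible peak in this window at a rate near that of all protein-coding genes. Many of the peaks named below were nearest to the start of another gene, so the count does not show these genes themselves to be bound. Of 24 listed, 14 had a reproducible peak in the gene or within 5 kb, against the 51.6% of all protein-coding genes. Of 8 genes of receptor glycosylation and cleavage 5 had one. The strongest, of signal 4309 at rank 32, was given to kuz, the metalloprotease gene for receptor cleavage. It lay in an intron, without a record of which gene's, and ics was the gene of nearest TSS. Others in this group were 1375 near O-fut1, which encodes the receptor's O-fucosyltransferase, 1020 near aph-1, a gamma-secretase subunit gene, and 629 at the promoter of rumi, an O-glucosyltransferase gene. The O-fut1 and aph-1 peaks were nearest to the starts of CG13018 and Snx21.

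Of 7 trafficking genes 4 had a peak. The largest signal was 2403 near lgd, an endosomal regulator of the receptor, at a promoter of Idua, and numb, the inhibitor of Notch in sister cells, had 913 at its own promoter. The peaks of mib1, a ligand ubiquitin ligase gene, and dx, a regulator of receptor traffic, had signals of 556 and 445 and were nearest to hzg and RpL7A. All 5 nuclear cofactor genes had one, with 1242 at nej, the CBP acetyltransferase gene, 671 at ebi, 499.5 at the corepressor gene CtBP and 364 at Hey, a Notch target. Of these, the ebi peak lay at the promoter of RpLP1, the Hey peak nearest to CG11191 and the nej peak nearest to the non-coding RNA gene lncRNA:CR42657. The 4 listed Bearded family genes, whose products inhibit neur, had 0. These counts are small and depend on gene length. Protein-coding genes under 5000 bp, such as these 4, Hey and ebi, had a reproducible peak in 46.1% of cases. The share was 68.6% for genes of 10000 to 20000 bp, such as CtBP, and 80.0% for those of 20000 to 30000 bp, such as nej.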

How the data were processed

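Peak lists of scrt-GFP ChIP-seq on assembly dm6 were used as deposited. Per the deposited README listings, each replicate's alignments and those of both together were compared with a control to give lists that keep background, as input for the irreproducible discovery rate (IDR); the optimal list, called reproducible here, is what an IDR threshold left. Fragments were 200 to 800 bp per the labels. Caller, aligner, threshold and depth: not given in the sources used here. Signal, a deposited column, is the authors' enrichment value per peak; ranks by signal were compared between the replicate lists, which hold 30000 peaks each. The deposited −log10 q-value was at its ceiling for 81.3% of reproducible peaks and was not used. The reproducible list equals the leading 6407 entries of the pooled list, and 39.8% of its peaks have 1 fixed width, 430 bp.

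Genes came from Ensembl release 115, entries without a FlyBase gene number left out, and 0 peaks passed a chromosome end. Summits within 500 bp of any annotated TSS were called promoter. A match needs 1 bp of overlap, and its rank is that of the best-ranked overlapping peak. The members, the lists and the alternatives were chosen with earlier results of these data known, and the text names every member and each other pathway gene with a peak among the 3203 of highest signal. Of the 24 other genes, 2 were matched through a synonym. No test was run, since 1 group of 2 samples allows none. Counting was tested on simulated data. Computations used Python 3.11.15, numpy 2.4.6, pandas 2.3.3, scipy 1.17.1 and matplotlib 3.10.9.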

Additional observations from a re-analysis of the deposited data

How the results depend on the processing

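Of 36 alternative values, 32 stayed close to the reported count or within the interval of the reported share. Both limits were wide: 3 genes with a peak in place of 4, and 31 peaks in place of 25, were counted as close. Some alternatives, such as keeping only peaks matched in both replicates, could change little, so this count says little about stability. With the 3203 peaks of highest signal the 8 genes had 10 peaks and mam had 5, by the construction of a shorter list. With 1 replicate's 6407 leading peaks in place of the reproducible list, the count over the 8 genes was 20 to 22, the genes with a peak 3 to 4, the mam count 10 to 16 and the promoter share 45.5% to 55.0%. The lower mam count, 10, came without replicate 3, and the lower gene count without replicate 4, where N had no peak and neur 2; the cause was not tested. Requiring a match among the 6407 leading peaks of each replicate gave 64.0% in place of 92.0%, as fewer replicate peaks are searched. Windows of 0 to 10 kb gave 21 to 31 peaks; gro had 1 in its body, 3 within 5 kb and 7 within 10 kb, N had 1 in its body, and H had 1 at 10 kb. Limits to peaks matched in both replicates and to TSSs of protein-coding genes were chosen after seeing the data and gave 23 peaks and 48.0% at promoters. No paired analysis was possible because the 2 samples form 1 group. Without read depth, a gene with no peak is not shown to be unbound.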
